A study of Mus musculus with 32 samples.

Results

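The genes described here are 7 classical targets of the transcription factor NRF2 (Hmox1, Nqo1, Gclc, Gclm, Txnrd1, Srxn1 and Slc7a11) and the metallothionein genes Mt1 and Mt2, in whole kidney of mice with and without the collagen gene Col4a3. The 9 genes were taken by name, each by the array feature that named exactly 1 gene symbol and, where there were several, had the highest mean. All 9 were measured, out of 22180 genes on the array with such a feature, and no filter on low values was applied. The tested mice were Col4a3-/- (KO), a model of Alport syndrome, the inherited disease of the glomerular basement membrane, and their controls were Col4a3+/+ littermates (WT). All were males of strain 129, and each of the 4 groups held 8 mice: KO at 7 weeks, WT at 7 weeks, KO at 4 weeks and WT at 4 weeks of age. Each mouse gave 1 Affymetrix Mouse Gene 2.0 ST array of kidney RNA. The labels do not say which mice came from a litter, nor which part of Col4a3 the deletion removed.

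In unstressed cells NRF2 is held by its partner KEAP1, which hands it to a CUL3 ubiquitin ligase for breakdown. Oxidants and electrophiles modify KEAP1, NRF2 then gathers in the nucleus with a small MAF protein, and the pair binds antioxidant response elements (ARE) in genes for glutathione synthesis, thiol reduction, quinone reduction and heme breakdown. Metallothioneins are small cysteine-rich proteins that bind zinc and copper. The zinc sensor MTF1 induces their genes through metal response elements (MRE), and oxidants, glucocorticoids and inflammatory signals are also known inducers. In the kidney the proximal tubule is known for a high demand for glutathione and for metal binding.

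Values were gene-level log2 signals that the authors deposited after robust multi-array averaging, so a difference of 1 is a 2-fold change. Within each group the lowest correlation between arrays over all genes lay between 0.965 and 0.987. Col4a3 itself was lower in KO than in WT mice at both ages, with every KO mouse below every WT mouse, by 1.65 ± 0.13 (SE) at 7 weeks and by 0.99 ± 0.13 at 4 weeks on the log2 scale. The kidney label fitted its markers, since the mean log2 signal of 14 proximal tubule markers was 11.22 or more in all 32 mice. On the leading principal component, which held 37.3% of the variance, the 7-week KO mice lay at 24.5 to 62.7 and 7-week WT mice at -9.91 to -4.88. The 7-week KO mice formed 2 clusters, mice 1, 4, 6 and 8 at 56.4 to 62.7 and mice 2, 3, 5 and 7 at 24.5 to 36.7. At 4 weeks KO mice 4 and 5 lay at the ends of their group, at 9.26 and -31.2. With whole tissue, more cells of a type and more RNA per cell cannot be told apart in any result below.

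At 7 weeks 5 of the 9 genes were higher in KO than in WT kidneys and 1 was lower, at adjusted p below 0.05 over all 22180 genes (limma). The background was 32.3% of all genes called, 15.6% higher and 16.7% lower. The higher genes were Slc7a11, Srxn1, Hmox1, Mt1 and Mt2, by 1.24-fold to 2.07-fold, the lower gene was Gclm, and Gclc, Txnrd1 and Nqo1 did not pass. The median difference of the 9 genes was 0.31, against -0.06 over all genes. At 4 weeks no member passed, when 0.0406% of all genes did (0.0316% higher and 0.00902% lower), and Mt2 alone had an unadjusted p under 0.05. The change of the KO effect between the ages passed for the same 5 genes that were higher at 7 weeks, against a background of 17% of all genes, 9.8% with a greater and 7.24% with a lesser KO difference at the later age. Centring each array on the median of its 22180 genes lowered every KO minus WT difference at 7 weeks by 0.114. It thus moved the median difference over all genes below the -0.06 of the deposited values. The array medians over all features, which were not used for centring, were 5.66 to 5.73 in 7-week KO and 5.61 to 5.73 in 7-week WT mice. The higher genes then made up 23.6% of those called at 7 weeks, against 48.4% as deposited. The 5 higher members still passed at 7 weeks, and Gclc joined Gclm as lower.

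**Figure D1:**
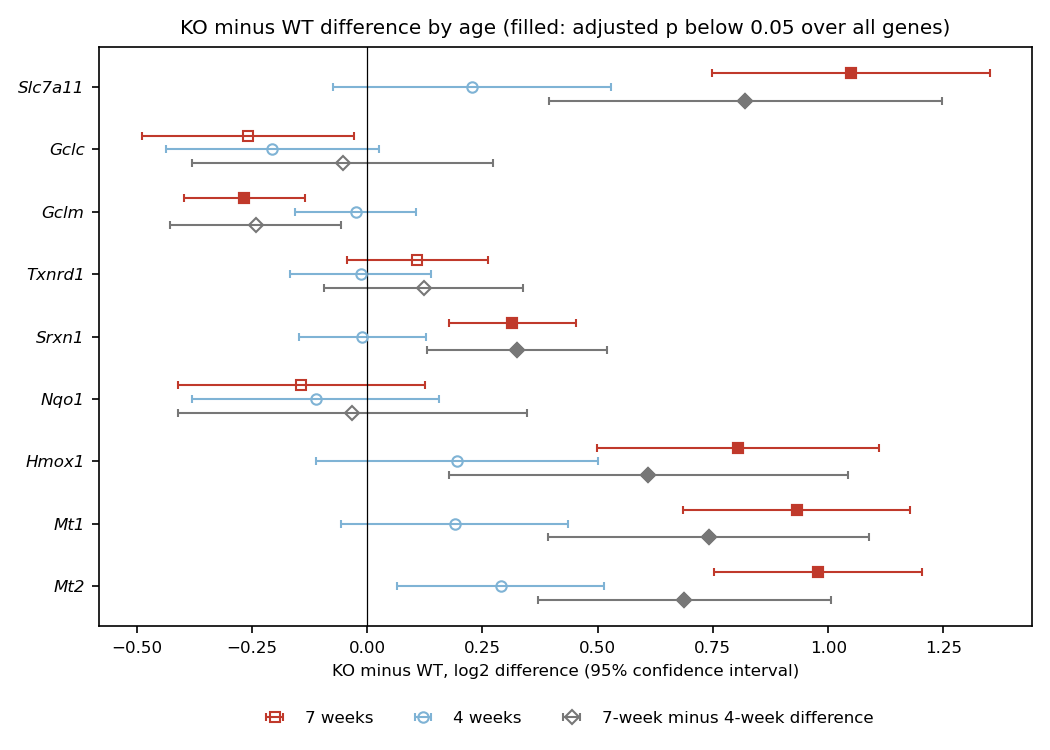
KO minus WT difference of each gene in log2 units (horizontal axis) at 7 weeks (squares), at 4 weeks (circles) and the 7-week minus 4-week difference of the 2 (diamonds), with 95% confidence intervals; filled symbols passed at adjusted p below 0.05 over all genes. Slc7a11, Srxn1, Hmox1, Mt1 and Mt2 are filled to the right of 0 at 7 weeks, Gclm is filled to the left, and no circle is filled.

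The first group of members makes glutathione. Slc7a11 encodes the light chain of the cystine importer xCT, which brings in cystine, the source of the cysteine that glutathione synthesis needs, and Gclc and Gclm encode the catalytic and modifier subunits of glutamate-cysteine ligase, the rate-limiting enzyme. The promoter windows of Slc7a11 and Gclm are shown because these 2 genes of a single pathway moved in opposite directions. Each runs from 250 bases before to 50 bases after a start, from RefSeq on GRCm38.p6, 5′ to 3′ in the direction of the gene, with matches to the ARE core (TGACNNNGC or TGAGNNNGC) and to the amino acid response element of ATF4 (AARE, TGATGNAA) in capitals on either strand. The Slc7a11 window is chr3:50443564-50443863 on the minus strand, inside the annotated gene at chr3:50364936-50499087. The Gclm window is chr3:122245307-122245606 on the plus strand, and the transcription start it is built on lies within the annotated gene.
Slc7a11: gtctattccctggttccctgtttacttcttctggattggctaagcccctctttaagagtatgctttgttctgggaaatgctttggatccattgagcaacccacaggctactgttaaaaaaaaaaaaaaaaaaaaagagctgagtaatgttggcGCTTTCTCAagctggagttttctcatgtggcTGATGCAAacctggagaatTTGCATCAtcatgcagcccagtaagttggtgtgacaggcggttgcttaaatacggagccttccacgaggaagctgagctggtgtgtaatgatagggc
Gclm: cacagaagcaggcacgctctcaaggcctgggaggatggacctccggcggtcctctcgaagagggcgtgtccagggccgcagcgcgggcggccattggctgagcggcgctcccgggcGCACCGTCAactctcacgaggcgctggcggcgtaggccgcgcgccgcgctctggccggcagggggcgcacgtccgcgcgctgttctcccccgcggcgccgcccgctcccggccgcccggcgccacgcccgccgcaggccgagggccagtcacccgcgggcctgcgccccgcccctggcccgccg
The Slc7a11 window held 1 ARE core match, first base at -97, and 2 AARE matches, at -66 and -47, and the Gclm window held 1 ARE core match, at -134, and no AARE match. Of 32851 windows of this length in the table, 27.8% held an ARE core match, 3.97% an AARE match and 0.0700% at least 2 AARE matches. These motifs were chosen with the sequences in view, a match is a run of letters and not a measured binding site, and a gene without a match may have one outside the window.

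Slc7a11 signal in 7-week KO mice was lowest at 4.49, with a median of 5.27 and a highest value of 5.62, against 3.80, 4.10 and 4.60 in 7-week WT mice. All but KO mouse 3 lay above every WT mouse. The KO mean was higher by 1.05 ± 0.15 on the log2 scale, or 2.07-fold (adjusted p = 9.15e-07), a difference at the 97th percentile of all genes. At 4 weeks Slc7a11 ranged from 3.87 to 4.80 in KO mice and from 3.61 to 4.39 in WT mice, with a difference of 0.23 ± 0.15 that did not pass (adjusted p = 0.661). The 7-week difference was greater than the 4-week one by 0.82 ± 0.21 (adjusted p = 0.00555). Slc7a11 had 2 features, of which the brighter was used. The mean of both gave a 7-week difference of 0.57 and a difference between ages of 0.52, which both passed. A filter on a mean log2 signal of at least 5 dropped Slc7a11 and left 4 higher members. No detection calls were used here, so whether the low WT signals stood above background was not analysed.

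The ligase subunits did not follow the importer. Gclm, at chr3:122245487-122267215, had lowest, median and highest signals of 11.30, 11.61 and 11.72 in 7-week KO mice, against 11.65, 11.82 and 11.96 in 7-week WT mice. The groups overlapped, since 4 KO mice fell under the WT range and 4 lay inside it. The KO mean was lower by 0.27 ± 0.06, or 1.20-fold (adjusted p = 0.00137). At 4 weeks the Gclm difference was -0.03 ± 0.06, with an interval from -0.16 to 0.11 (adjusted p = 0.937), and the change between ages, -0.24 ± 0.09, did not pass (adjusted p = 0.0651). It passed with centred arrays (-0.34, adjusted p = 0.00976) and in 6 of the 32 fits that each left out 1 mouse, namely 7-week KO mouse 2, 3, 5 or 7, 7-week WT mouse 1 or 4-week KO mouse 4 (adjusted p of 0.0232 to 0.121 over the 32). Gclc, at chr9:77754535-77794489, ran from 10.35 through 10.84 to 11.19 in 7-week KO mice and from 10.89 through 11.13 to 11.29 in 7-week WT mice. Its 7-week difference, -0.26 ± 0.11, was about as large as that of Gclm and did not pass (adjusted p = 0.0798). With each array centred on its median it was -0.37 (adjusted p = 0.00892), and it also passed without 7-week KO mouse 2 or mouse 7 (adjusted p of 0.0388 to 0.211 over the 32 fits that each left out 1 mouse). At 4 weeks the Gclc difference was -0.21 ± 0.11 (adjusted p = 0.595), and its change between ages was -0.05 ± 0.16.

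Proximal tubule markers are given beside these subunits. All 14 measured markers, among them the solute carriers Slc5a2 and Slc7a13 and the regulator Hnf4a, were lower in KO mice at 7 weeks (16.7% of all genes), with a median difference of -0.47 and a mean log2 level of 11.22 to 12.31 in KO and of 12.39 to 12.47 in WT mice. In 7-week KO mice 1 to 8 the marker mean was 11.56, 12.14, 12.31, 11.69, 12.18, 11.22, 12.16 and 11.77, and Gclm was 11.48, 11.72, 11.68, 11.33, 11.68, 11.30, 11.68 and 11.53. The mouse with the lowest marker mean, mouse 6, also had the lowest Gclm. Among 4-week KO mice, mouse 4 had the highest marker mean, 12.30, and the lowest Gclm and Gclc, 11.62 and 10.66. With age in WT mice 9 of 14 markers were higher (15.4% of all genes), with a median difference of 0.44. Gclm and Gclc differed with age in WT mice by -0.06 ± 0.06 and -0.05 ± 0.11, which did not pass. The part of proximal tubule RNA in the Gclm and Gclc values was not tested.

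**Figure D2:**
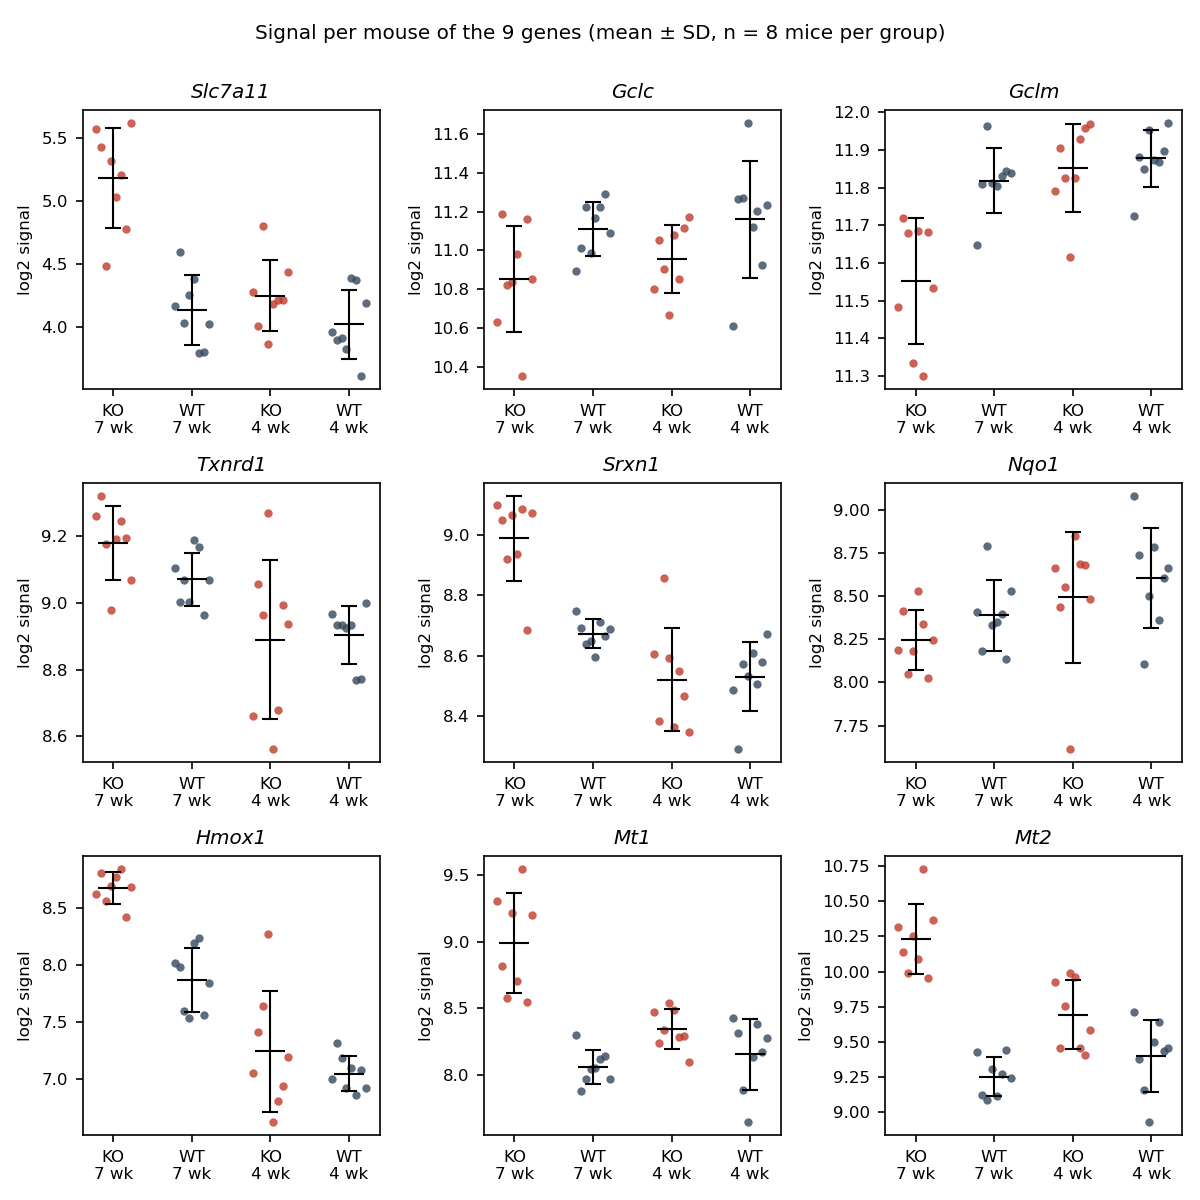
Log2 signal of the 9 genes (vertical axes, a scale of its own in each panel) for every mouse, in red for KO and dark blue for WT, at 7 and at 4 weeks; bars give mean ± SD of 8 mice. At 7 weeks Slc7a11, Srxn1, Hmox1, Mt1 and Mt2 passed as higher in KO mice, Gclm passed as lower, and Gclc, Txnrd1 and Nqo1 did not pass. Only for Hmox1, Mt1 and Mt2 do all 7-week KO mice lie outside the range of 7-week WT mice.

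The next members keep protein thiols reduced. Txnrd1 encodes the cytosolic thioredoxin reductase, a selenoprotein that recharges thioredoxin with NADPH, and Srxn1 encodes sulfiredoxin, which repairs overoxidised peroxiredoxins. The Srxn1 window is shown because it held more ARE core matches than any other member's window, again in capitals, at chr2:152105274-152105573 on the plus strand of GRCm38.p6.
Srxn1: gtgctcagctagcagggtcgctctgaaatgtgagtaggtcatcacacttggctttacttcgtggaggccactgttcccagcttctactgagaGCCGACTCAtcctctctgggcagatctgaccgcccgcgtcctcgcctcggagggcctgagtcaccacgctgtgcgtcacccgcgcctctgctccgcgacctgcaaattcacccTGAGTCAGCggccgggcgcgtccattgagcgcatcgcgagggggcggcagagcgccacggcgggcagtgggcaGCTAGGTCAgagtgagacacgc
Its 3 ARE core matches had their first bases at -158, -45 and 29, and 0.630% of all windows held 3 or more. The match at -45 overlapped the AP-1 site TGAGTCA, which also occurred at -102 and in 5.20% of all windows.

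Srxn1 signal in 7-week KO mice was lowest at 8.68, with a median of 9.06 and a highest value of 9.10, against 8.60, 8.68 and 8.75 in 7-week WT mice. KO mouse 7 lay among the WT mice and the other 7 KO mice above all of them. The KO mean was higher by 0.31 ± 0.07, or 1.24-fold (adjusted p = 0.000406). At 4 weeks the groups covered each other, from 8.35 to 8.86 in KO and from 8.29 to 8.67 in WT mice, with a difference of -0.01 ± 0.07 and an interval from -0.15 to 0.13. The KO effect was greater at 7 weeks by 0.33 ± 0.10 (adjusted p = 0.0165). That call was lost with centred arrays (0.23, adjusted p = 0.0729).

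Txnrd1, at chr10:82833951-82897724, did not pass in either comparison of genotypes. Of its 3 promoter windows 1 held an ARE core match, at -92, and none held a match to the other motifs. Its lowest, median and highest signals were 8.98, 9.19 and 9.32 in 7-week KO mice, against 8.96, 9.07 and 9.19 in 7-week WT mice. The groups overlapped, although 5 of 8 KO mice exceeded every WT mouse. The 7-week difference was 0.11 ± 0.08, with an interval from -0.04 to 0.26 (adjusted p = 0.286), and it was -0.01 with centred arrays. At 4 weeks it was -0.01 ± 0.08, with means of 8.89 ± 0.24 in KO mice and 8.90 ± 0.09 in WT mice (SD, n = 8 each).

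Nqo1 and Hmox1 encode the quinone reductase and the heme oxygenase of the NRF2 response, both used in many settings as readouts of the pathway. Nqo1, at chr8:107388225-107403205, ran from 8.02 through a median of 8.22 to 8.53 in 7-week KO mice and from 8.13 through 8.37 to 8.79 in 7-week WT mice. The groups overlapped and the difference, -0.14 ± 0.13, had an interval from -0.41 to 0.12 (adjusted p = 0.436), so an increase above 0.12 on the log2 scale lay outside it. At 4 weeks Nqo1 ran from 7.61 to 8.85 in KO mice and from 8.11 to 9.08 in WT mice, with a difference of -0.11 ± 0.13. Nqo1 had no match to any of the 4 motifs searched in its window.

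Hmox1, at chr8:75093618-75100593, had lowest, median and highest signals of 8.41, 8.68 and 8.84 in 7-week KO mice, against 7.54, 7.91 and 8.24 in 7-week WT mice. All 8 KO mice lay above all 8 WT mice, as they did for Mt1 and Mt2, and 7.62% of all genes showed that pattern. The KO mean was higher by 0.80 ± 0.15, or 1.75-fold (adjusted p = 6.7e-05). At 4 weeks KO mice were spread from 6.62 to 8.27 around WT mice at 6.86 to 7.31, with a difference of 0.19 ± 0.15 (adjusted p = 0.729). The change of the KO effect between ages was 0.61 ± 0.21 (adjusted p = 0.0442), and this call was lost in 20 of the 32 fits that each left out 1 mouse (adjusted p of 0.00152 to 0.0782) and with centred arrays (0.51, adjusted p = 0.0799). The highest 4-week KO value of Hmox1, 8.27, belonged to mouse 4, in which Nqo1 was the lowest of the group at 7.61, Gclc and Gclm were the lowest at 10.66 and 11.62, and Txnrd1, Mt1 and Mt2 were the highest at 9.27, 8.54 and 9.99.

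Heme oxygenase is abundant in macrophages, so their markers are given beside it. All 15 macrophage markers were higher in 7-week KO mice (15.6% of all genes), with a median difference of 2.58, and Lyz2, Cd14 and Cd68 by 4.07, 3.56 and 2.64. The mean log2 level of the 15 was 8.08 to 9.49 in 7-week KO mice, against 6.32 to 6.58 in 7-week WT mice. At 4 weeks it was 6.52 to 7.46 in KO mice and 6.28 to 7.42 in WT mice. WT mice 5 and 8 held the top of that 4-week WT range, at 6.96 and 7.42. The other 4-week WT mice lay at 6.28 to 6.33, below every 4-week KO mouse. The macrophage scavenger receptor Cd163, of the heme list, did not differ beyond its error (0.04 ± 0.09). Its mean log2 signal was low, 4.42 to 4.59 over the 4 groups, and whether it stood above background was not analysed. In 7-week KO mice 1 to 8 the marker mean was 9.36, 8.37, 8.08, 9.34, 8.46, 9.49, 8.57 and 9.27, and Hmox1 was 8.62, 8.80, 8.56, 8.69, 8.77, 8.84, 8.41 and 8.68. Mouse 6 was the highest in both, and mice 2 and 5 were next in Hmox1 with marker means in the lower part of the group. In WT mice Hmox1 was higher at 7 than at 4 weeks, by 0.82 ± 0.15 (adjusted p = 9.02e-05), while 1 of the 15 markers rose, Csf1r, and their median difference was -0.06. The part of macrophage RNA in the KO difference was not tested.

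Mt1 and Mt2 lie side by side on chromosome 8, 5.316 kb apart, in a cluster of 43.1 kb that also holds Mt3 and Mt4. Their windows are shown because both genes rose, with matches to the MRE core (TGCACNC or TGCGCNC) and to the ARE core in capitals, at chr8:94178839-94179138 for Mt1 and chr8:94172368-94172667 for Mt2, both on the plus strand of GRCm38.p6. The transcription start used for the Mt1 window lies within the annotated gene, at chr8:94178883-94180327.
Mt1: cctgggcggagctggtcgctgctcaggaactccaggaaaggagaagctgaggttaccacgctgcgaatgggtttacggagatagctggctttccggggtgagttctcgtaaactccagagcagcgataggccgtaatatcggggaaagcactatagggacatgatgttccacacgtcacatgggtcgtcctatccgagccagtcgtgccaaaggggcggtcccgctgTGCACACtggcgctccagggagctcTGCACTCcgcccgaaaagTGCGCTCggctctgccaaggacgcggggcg
Mt2: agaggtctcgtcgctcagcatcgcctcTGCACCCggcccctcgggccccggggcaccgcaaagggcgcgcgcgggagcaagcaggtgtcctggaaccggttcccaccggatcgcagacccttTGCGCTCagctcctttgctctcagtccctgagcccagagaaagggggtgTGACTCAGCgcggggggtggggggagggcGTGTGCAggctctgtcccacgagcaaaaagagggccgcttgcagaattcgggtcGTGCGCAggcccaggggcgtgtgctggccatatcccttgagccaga
The Mt1 window held 3 MRE core matches, at -23, 3 and 21, and the Mt2 window held 4, at -223, -128, -50 and 5. Of all windows 25.7% held at least 1, 1.97% at least 3 and 0.517% at least 4. The Mt2 window also held 1 ARE core match, at -79, whose letters TGACTCAGC overlap an AP-1 site on the other strand. Among windows of members outside the metallothioneins, that of Gclm held 3 MRE core matches, 1 of them overlapping its ARE core match, and that of Srxn1 held 1.

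**Figure D3:**
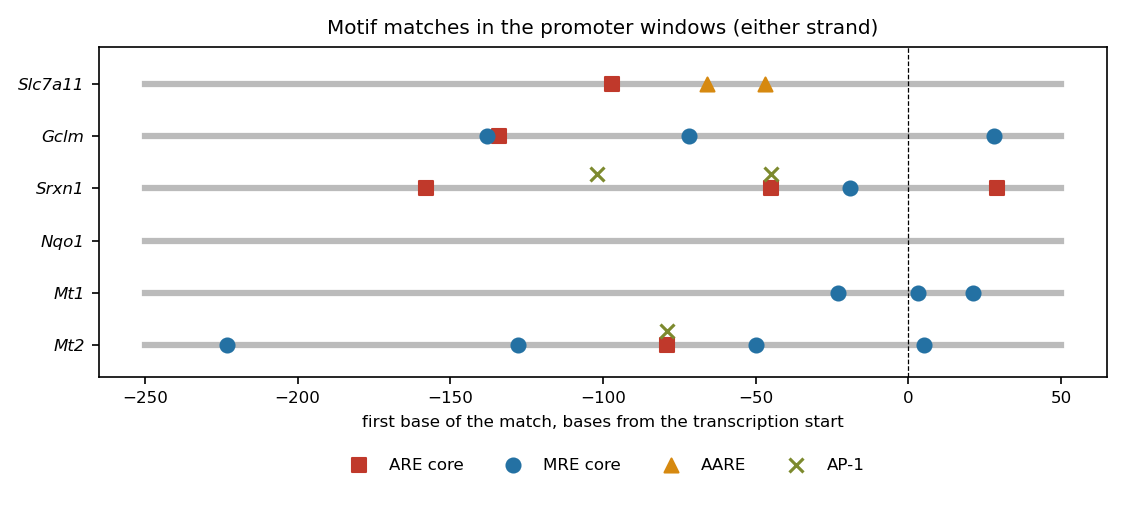
Positions of motif matches in the promoter windows of 6 members (those with a single window, so without Txnrd1), in bases from the start (horizontal axis, dashed line at the start), with the ARE core as squares, the MRE core as circles, the AARE as triangles and the AP-1 site as crosses drawn above the line. Matches to the MRE core gather in Mt1, Mt2 and Gclm, the ARE core in Srxn1, the AARE in Slc7a11, and the Nqo1 line is empty.

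Mt1 signal in 7-week KO mice was lowest at 8.55, with a median of 9.01 and a highest value of 9.55, against 7.88, 8.05 and 8.30 in 7-week WT mice. For Mt2 these values were 9.96, 10.20 and 10.73 in 7-week KO mice, against 9.08, 9.26 and 9.44 in 7-week WT mice. Neither gene had any overlap between the groups. The KO mean was higher by 0.93 ± 0.12, or 1.91-fold, for Mt1 (adjusted p = 2.11e-07). It was higher by 0.98 ± 0.11, or 1.97-fold, for Mt2 (adjusted p = 1.61e-08), and both differences lay above the 96th percentile of all genes. In 7-week KO mice 1 to 8 Mt1 was 9.31, 8.82, 8.58, 9.22, 8.71, 9.55, 8.55 and 9.20, highest in mouse 6, which had the lowest Gclm. In the same mice the macrophage marker mean given above was also highest in mouse 6 and the proximal tubule marker mean lowest there. The 2 clusters split likewise, as mice 1, 4, 6 and 8 all lay above mice 2, 3, 5 and 7 in Mt1, Mt2, Srxn1 and the macrophage marker mean. They all lay below them in Gclm, the proximal tubule marker mean and the mean of the antioxidant enzymes counted below. The clusters were seen over all genes of these same arrays, so such a split is not particular to the genes named here. The part of either marker set in the Mt1 and Mt2 differences was not tested.

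At 4 weeks Mt2 was the nearest of the 9 genes to a call. It ran from 9.41 through 9.67 to 9.99 in 4-week KO mice and from 8.93 through 9.45 to 9.72 in 4-week WT mice, with 4 of 8 KO mice above every WT mouse. Its difference of 0.29 ± 0.11 had an unadjusted p of 0.0134 and did not pass (adjusted p = 0.421). Mt1 ran from 8.10 to 8.54 in 4-week KO mice and from 7.64 to 8.43 in 4-week WT mice, with a difference of 0.19 ± 0.12 (adjusted p = 0.649). The KO effect was greater at 7 weeks by 0.74 ± 0.17 for Mt1 (adjusted p = 0.00234) and by 0.69 ± 0.16 for Mt2 (adjusted p = 0.00202). Of the neighbours in the cluster, chosen after their values were seen, Mt3 was lower in 7-week KO mice by 0.26 ± 0.09 (adjusted p = 0.0327), a call lost in 9 of the 32 fits that each left out 1 mouse, and Mt4 differed by 0.06 ± 0.12 (adjusted p = 0.726).

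Within genotypes the ages differed in another way. In KO mice 6 of 9 genes were higher at 7 than at 4 weeks (21.4% of all genes) and 1 was lower (21.3%, and 42.6% in either direction). They were Hmox1 by 1.43 ± 0.15 (adjusted p = 4.3e-09), Slc7a11 by 0.93 ± 0.15 (0.47 by the mean of its 2 features), Mt1 by 0.65 ± 0.12, Mt2 by 0.54 ± 0.11, Srxn1 by 0.47 ± 0.07 and Txnrd1 by 0.29 ± 0.08 (adjusted p = 0.00206), while Gclm fell by 0.30 ± 0.06 (adjusted p = 0.000277). Nqo1 differed by -0.25 ± 0.13 with age in KO mice and did not pass (adjusted p = 0.13), but passed without 4-week KO mouse 4 (adjusted p = 0.00468). In WT mice 1 of 9 was higher at 7 weeks, Hmox1 by 0.82 ± 0.15 (15.4% of all genes higher, 14.1% lower and 29.5% in either direction), with all 8 older mice above all 8 younger ones, a pattern of 7.38% of genes. Txnrd1 and Srxn1 differed by 0.17 ± 0.08 and 0.14 ± 0.07 in WT mice (adjusted p = 0.0974 and 0.122), and both passed a rank-sum test (adjusted p = 0.00366 and 0.0129). Mt1, Mt2 and Slc7a11 differed in WT mice by -0.09 ± 0.12, -0.15 ± 0.11 and 0.11 ± 0.15, none of which passed. These comparisons share mice with those between genotypes, so their values are given side by side.

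Of 12 measured regulators of the pathway 2 were higher and 3 lower in 7-week KO mice, near the background of 15.6% and 16.7%. Their median was 0.03, less than the shift that centring gave. Nfe2l2, which encodes NRF2, was higher by 0.43 ± 0.10 (10.93 ± 0.27 in KO and 10.51 ± 0.10 in WT mice, SD, n = 8 each; adjusted p = 0.000791), and its KO effect was greater at 7 than at 4 weeks by 0.48 ± 0.14 (adjusted p = 0.0134). The lower ones were the ligase scaffold Cul3 (-0.24 ± 0.05), the substrate receptor Btrc (-0.31 ± 0.08) and the small MAF partner Mafg (-0.34 ± 0.11). Maff and Nfe2l1, at 0.20 ± 0.10 and 0.16 ± 0.08, did not pass, nor did Keap1, chosen after its value was seen, at -0.12 ± 0.07 (adjusted p = 0.243).

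Of 19 other NRF2 targets 3 were higher and 5 lower in 7-week KO mice, close to the background in number for the higher ones, with a median of -0.09. Pgd, of the pentose phosphate pathway, was higher by 0.48 ± 0.09. Malic enzyme Me1 was lower by 0.60 ± 0.10, the biliverdin reductase Blvrb by 0.31 ± 0.08 and the UDP-glucose dehydrogenase Ugdh by 0.36 ± 0.09, and the drug exporter Abcc4 (0.35 ± 0.17) and the glutathione transferase Gstm1 (-0.27 ± 0.12) did not pass. Of 17 antioxidant enzymes outside the NRF2 lists 13 were lower (16.7% of all genes) and 1 was higher (15.6%), with a median of -0.25. The methionine sulfoxide reductase Msrb1 was lower by 0.60 ± 0.08, glutathione synthetase Gss by 0.53 ± 0.11, the mitochondrial superoxide dismutase Sod2 by 0.38 ± 0.06 and mitochondrial thioredoxin Txn2 by 0.31 ± 0.06. Gpx4 and Prdx2, at -0.13 ± 0.08 and 0.12 ± 0.06, did not pass. The proximal tubule markers given above were lower in the same mice, and their part in these differences was not tested.

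Genes that act beside single members were also counted, against a 7-week background of 15.6% of all genes higher and 16.7% lower. Of 9 heme genes 4 were higher and 2 lower at 7 weeks: the heme exporter Flvcr1 by 1.08 ± 0.14, the hemopexin receptor Lrp1 by 0.75 ± 0.14 and haptoglobin Hp by 0.51 ± 0.11 were higher, the biliverdin reductase Blvra was lower by 0.36 ± 0.07, and the heme carrier Slc48a1 (-0.06 ± 0.05) did not pass. Of 16 zinc, copper and iron genes, which include Mt3 and Mt4, 5 were higher and 6 lower. Ceruloplasmin Cp was higher by 2.03 ± 0.17, the iron exporter Slc40a1 by 0.72 ± 0.09 and the zinc importer Slc39a1 by 0.51 ± 0.06, and the transferrin receptor Tfrc was lower by 1.30 ± 0.18. The zinc sensor Mtf1, at -0.08 ± 0.07, did not pass (adjusted p = 0.39). Of 11 genes of the ATF4 amino acid response, in a pathway known to include Slc7a11, 3 were higher and 1 lower, with Slc7a5 at 1.08 ± 0.15, Asns at 0.82 ± 0.10, Psat1 at 0.55 ± 0.13 and Shmt2 at -0.94 ± 0.16. Chac1 (0.21 ± 0.09) and Trib3 (0.16 ± 0.09) of that list did not pass.

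The glucocorticoid-responsive list, which bears on a known inducer of metallothioneins, had 1 of 7 genes lower and none higher at 7 weeks, near the background of 16.7% lower. That gene was Dusp1, by 0.56 ± 0.17 (adjusted p = 0.00877), and Fkbp5 (-0.52 ± 0.23) and Tsc22d3 (-0.31 ± 0.18) did not pass. Of 6 subunits of the superoxide-making NADPH oxidases 4 were higher (15.6% of all genes) and 1 was lower (16.7%). Cybb was higher by 2.44 ± 0.21, Rac2 by 1.99 ± 0.16, Ncf1 by 1.04 ± 0.09 and Ncf4 by 0.71 ± 0.11. The lower subunit was Nox4, named after its value was seen, by 0.48 ± 0.11 (limma, adjusted p = 0.000534), and Cyba (-0.13 ± 0.09) did not pass. The macrophage markers given above were higher in the same mice, and their part in the differences of these subunits was not tested. At 4 weeks no gene of these lists or of the cell type lists passed, and 6 of 15 macrophage markers, 4 of 12 loop and distal tubule markers, 3 of 19 other NRF2 targets 2 of 12 regulators and 1 of 11 ATF4 genes had an unadjusted p under 0.05, against 9.22% of all genes. Of the remaining cell type lists at 7 weeks, 7 of 12 loop and distal tubule markers and 2 of 9 podocyte and endothelial markers were lower and none was higher. The background was 16.7% of all genes lower and 15.6% higher.

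**Figure D4:**
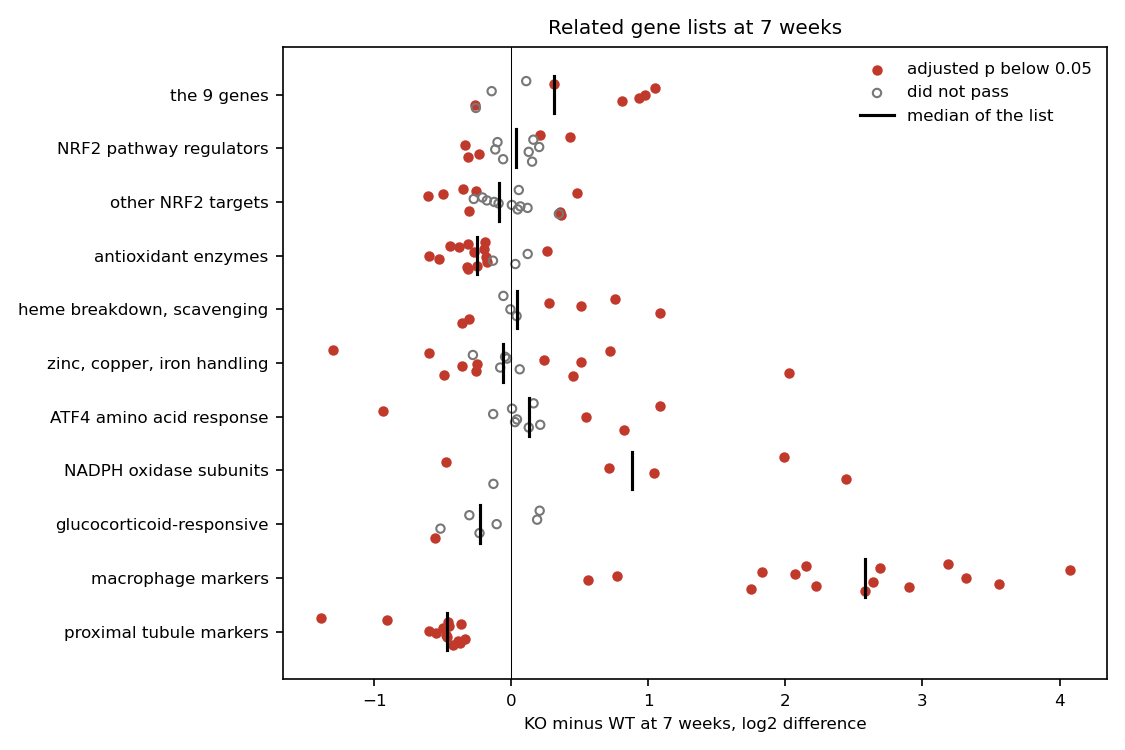
KO minus WT difference at 7 weeks in log2 units (horizontal axis) of the 9 genes and of each gene in the related lists (rows), filled red where adjusted p was below 0.05 over all genes and open where not, with the list median as a vertical bar. Antioxidant enzymes lie mostly left of 0 with a median of -0.25, macrophage markers all lie right of 0 with a median of 2.58, and the 9 genes lie on both sides.

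Variation among mice of the same group was shared by the metallothionein pair, by the ligase pair and by Hmox1 with Txnrd1. After each group mean was removed, Mt1 and Mt2 had a correlation of 0.86 over 32 mice, Gclc and Gclm of 0.73, and Hmox1 and Txnrd1 of 0.72. Gclc and Gclm ran against Mt1 and Mt2, with correlations of -0.68 to -0.74. Without the 7-week KO mice, which fell into 2 clusters, the values over 24 mice were 0.85, 0.69 and 0.78 for the 3 positive pairs and -0.57 to -0.66 for the ligase subunits against the metallothioneins. With each of the 32 mice left out in turn, Mt1 with Mt2 stayed at 0.82 or above and Gclc with Gclm at 0.66 or above, and Hmox1 with Txnrd1 was 0.58 without 4-week KO mouse 4. The correlation of Hmox1 with Nqo1, -0.49 over 32 mice, was -0.10 without that mouse. These are 36 pairs described with no test, and all share the same arrays and array scaling.

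**Figure D5:**
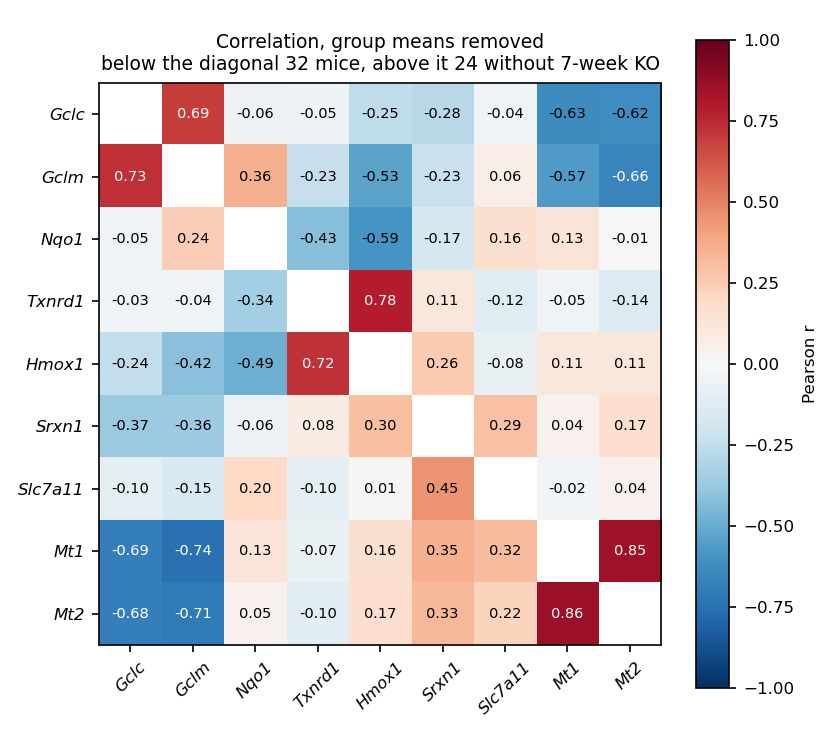
Pearson correlation of each pair of members after group means were removed, coloured from -1 (blue) to 1 (red), over 32 mice below the diagonal and over the 24 mice other than 7-week KO above it. Mt1 with Mt2, Gclc with Gclm and Hmox1 with Txnrd1 are the dark red pairs on both sides, and the ligase subunits are blue against the metallothioneins.

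The relations of Mt1 with Mt2, Gclc with Gclm, Txnrd1 with Srxn1 and Hmox1 with macrophage markers were also tested inside the single groups of 8 other than 7-week KO, with exact permutation over all pairings and adjustment over 12 tests. Only Mt1 with Mt2 in 4-week WT mice passed by Pearson correlation (r = 0.94, exact permutation p = 0.00154, adjusted p = 0.0185), with Spearman rho of 0.79 (exact permutation, adjusted p = 0.147) and r of 0.64 without the 2 mice farthest from the median. For the same pair r was 0.80 in 4-week KO mice and 0.79 in 7-week WT mice (exact permutation, adjusted p = 0.0646 for each). Gclc with Gclm gave r of 0.81 in 4-week KO, 0.72 in 7-week WT and 0.76 in 4-week WT mice (exact permutation, adjusted p = 0.0601, 0.0769 and 0.088), and in 4-week WT mice it was -0.06 without the 2 farthest mice. Hmox1 with the mean of the macrophage markers gave 0.48 in 4-week KO, -0.25 in 7-week WT and -0.25 in 4-week WT mice, and Txnrd1 with Srxn1 lay between -0.06 and 0.15. None of these passed.

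The genes whose values ran most like each member over the 32 mice, by the same correlation, differed between members. For Mt1 the first was Mt2 itself, followed by Mboat1 (0.84) and Colca2 (0.81), and for Mt2 the next after Mt1 were Prrg4 (0.77) and Mustn1 (0.73). For Gclm they were Rnf24 (0.86), Tmco3 (0.83) and Slc7a13 (0.83), the last being 1 of the proximal tubule markers, and for Gclc they were Rnf24 (0.80), C8a (0.79) and Frmpd3 (0.79). Hmox1 ran most like Kdelr2 (0.87), Nop2 (0.84) and Tfg (0.81), and Txnrd1 most like Calr (0.84), Fbxo42 (0.84) and Hyou1 (0.83), where Kdelr2, Calr and Hyou1 encode proteins of the endoplasmic reticulum or of retrieval to it. Without 4-week KO mouse 4 these 6 correlations were 0.71 to 0.78. Srxn1 ran most like Cd44 (0.71), Dapp1 (0.69) and Cd80 (0.68), Slc7a11 like Pcdhb8 (0.70), Rbm41 (0.68) and Ugcg (0.67), and Nqo1 like Rwdd2a (0.78), Bivm (0.78) and Sh3yl1 (0.75). Without 4-week KO mouse 4 the Nqo1 values were 0.64, 0.59 and 0.58.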

How the data were processed

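Kidney RNA of 32 mice was hybridised to 1 array each. The authors deposited gene-level log2 values, per the labels from robust multi-array averaging in Affymetrix Expression Console, with no version stated. Scan batches were not analysed here. All 32 columns were matched to a mouse by title, and 0 were left over. Of 41345 features, 23521 named 1 gene, 1814 several and 16010 none, and the feature with the highest mean per gene gave 22180 genes, with no filter and no pseudocount. limma 3.58.1 in R 4.3.3 fitted 1 mean per group (28 residual degrees of freedom) with moderated variances, and 5 comparisons were adjusted by Benjamini-Hochberg over all genes, passing below 0.05, with 95% intervals. The number of arrays limits the precision. The script was tested on simulated data. Exact permutation tests used numpy 2.4.6, with ranks for Spearman rho from scipy 1.17.1, in Python 3.11.15.

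The members and lists, and the tests, were chosen with earlier results of these data known. All 9 members were named in every comparison. From each list the text could name up to 4 passing genes, by smallest p, and up to 2 others, by largest difference, and for likeness the 3 genes with the highest correlation. The lists are those of the text: 12 lists with 157 genes, of which 146 were measured. Promoter windows came from RefSeq GRCm38.p6, with windows for 7 of 9 members, and Hmox1 and Gclc had no entry. Alternatives were array centring, a mean of at least 5, the mean of all features, a variance trend, array weights, fits of 2 groups alone, a replicate block, a rank-sum test and leaving out mice.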

Additional observations from a re-analysis of the deposited data

Results flagged for a closer look

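Among 36 sets of 8 mice, 2 held a mouse far from the others by a gap test, where about 1 in 20 sets are picked by chance. Nqo1 in 4-week KO mice had its lowest value, 7.61, in mouse 4, with a gap of 0.667 of the range. Srxn1 in 7-week KO mice had its lowest value, 8.68, in mouse 7, with a gap of 0.570 of the range, and the other 7 mice lay above all WT mice.

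The KO effect differed between the ages, by the test of the difference itself, for 5 genes. It was greater at 7 than at 4 weeks by 0.82 for Slc7a11, 0.74 for Mt1, 0.69 for Mt2, 0.61 for Hmox1 and 0.33 for Srxn1 on the log2 scale. For Hmox1 and Srxn1 the call depended on the processing. For Slc7a11, Mt1, Mt2 and Srxn1 it passed with every mouse left out in turn, and for Srxn1 it was lost with centred arrays.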

How the results depend on the processing

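At 4 weeks 9 genes passed in all, against 5 with array weights, 1 in a fit of the 2 groups alone, 0 by rank-sum test (2044 at unadjusted p below 0.05 in limma), 56 without WT mice 5 and 8 and KO mice 4 and 5, and 3 to 24 with 1 mouse left out. Those WT mice had the highest macrophage marker means of their group, 6.96 and 7.42. Those KO mice lay at the ends of theirs on the leading principal component. The mice left out thus stood out in the same values, so the count of 56 is no independent check. At 7 weeks 7167 passed, against 10892 with each array centred on its median. Centring moved the KO minus WT median of arrays by 0.114 and the share of calls that were higher to 23.6%, against 48.4% (33.2% against 57.5% for the difference between ages, 35.1% against 50.1% for the ages in KO). Centring gave 2 lower members at 7 weeks, adding Gclc (1 to 2 with 1 mouse left out). For the difference between ages it left 3 higher members (Slc7a11 0.72, Mt1 0.64, Mt2 0.59), losing Hmox1 (0.51, adjusted p = 0.0799) and Srxn1. With the 4-week mice named above left out, the Srxn1 difference between ages was 0.27 (adjusted p = 0.061), and Hmox1 with 1 mouse left out ran from 0.52 to 0.76. Gclm made 1 lower member for that difference with centring, the mean filter, the variance trend, array weights and the 4 mice left out (0 to 1 with 1 mouse left out). In KO mice Nqo1 made 2 lower members with age under centring, array weights and the 4 mice left out (1 to 2 with 1 mouse left out). In WT mice 2 members were higher with age in the fit of 2 groups alone, 3 by rank-sum test and 2 with the 4 mice left out.

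Small differences changed sign. At 4 weeks these were Nqo1 (0.017 with the 4 mice left out, -0.18 to 0.015 with 1), Gclm (0.019 with weights, 0.034 with the 4 mice left out, -0.047 to 0.0086 with 1), Txnrd1 (0.0014 with weights, -0.068 to 0.033 with 1 mouse left out) and Srxn1 (0.041 with the 4 mice left out, -0.058 to 0.014 with 1). At 7 weeks they were Txnrd1 (-0.0054), Cd163 (-0.076, also -0.010 with weights and -0.015 to 0.075 with 1 mouse left out) and Mt4 (-0.053) under centring, and in WT mice Slc7a11 with age (-0.050) by the mean of features. With 1 mouse left out the difference between ages ran from -0.16 to 0.039 for Nqo1 and -0.12 to 0.026 for Gclc, and Gclc with age in WT from -0.13 to 0.022. With centred arrays Mt1 with Mt2 in 4-week KO (0.817) and 7-week WT mice (0.793), and Gclc with Gclm in 4-week KO (0.821) and WT mice (0.839), passed (exact permutation, adjusted p = 0.0453), and Txnrd1 with Srxn1 turned to -0.067 in 4-week and 0.085 in 7-week WT mice. The cause of these changes was not tested. The labels do not say whether the replicate numbers pair the mice. Same-numbered KO and WT mice deviated with correlations of -0.122 to 0.110 at 7 weeks and -0.270 to 0.232 at 4 weeks. A KO mouse correlated best with its own number in 2 of 8 cases at 7 weeks and 1 of 8 at 4 weeks. Pairing was thus not seen, but a pairing that leaves little trace in expression would be missed by this check. With the replicate number as a block 7067 genes passed at 7 weeks, 7 at 4 weeks and 3743 for the difference between ages, where Hmox1 had adjusted p = 0.0607. Leaving mice out of the correlations between members was chosen after seeing the data.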

Other observations

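The related gene lists also differed between the ages. In KO mice 11 of 17 antioxidant enzymes outside the NRF2 lists were lower at 7 than at 4 weeks and 1 was higher, with a median difference of -0.34, and 7 of 12 NRF2 regulators were higher and 1 lower, with a median of 0.34. In WT mice 5 of 12 regulators, 7 of 19 other NRF2 targets and 9 of 14 proximal tubule markers were higher at 7 weeks, with medians of 0.21, 0.13 and 0.44, and 1 proximal tubule marker and no regulator or other target was lower. The background was 21.4% of all genes higher and 21.3% lower with age in KO mice, and 15.4% higher and 14.1% lower in WT mice.

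The KO effect itself differed between ages for 9 of 17 antioxidant enzymes, each lower at 7 weeks relative to 4 weeks, and for all 15 macrophage markers, each higher, with a median of 2.15. The background was 7.24% of all genes with a lesser and 9.8% with a greater KO effect at 7 weeks. Bach1, which encodes a repressor of Hmox1 and is named after its value was seen, had a KO effect greater at 7 than at 4 weeks by 0.33 ± 0.11 (limma, adjusted p = 0.0279). That change includes a 4-week value that was lower in KO than in WT mice, at unadjusted p under 0.05 (limma), which did not pass after adjustment.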
